A study of Mus musculus with 7 samples.

Results

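Described here are 10 genes known as markers of the medial ganglionic eminence lineage of interneurons, as read in 7 single VIP neurons of the mouse hippocampus. They were taken by gene symbol, as Sst, Npy, Tac1, Pvalb, Nos1, Nxph1, Chodl, Lhx6, Sox6 and Satb1. All 10 were found among the 21414 gene symbols named in every table, of which 20187 were protein-coding. Each library held the contents of 1 neuron, aspirated after patch-clamp recording in an acute slice from a VIP-eGFP mouse, a strain in which a green fluorescent reporter is driven by Vip control regions. The cells lay in the stratum oriens/alveus of area CA1, and those kept had axons traced to the subiculum. No treatment was given, the labels name no age or animal, and all 7 cells form 1 group. They therefore count as 1 sample, and no p-value was made from cells. Values are TPM, a length-corrected share of all transcripts in a library scaled to a total of 1000000, summed over the transcripts of a gene, with a gene called detected above 1 TPM.

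Forebrain inhibitory interneurons arise in separate embryonic zones. The medial ganglionic eminence gives the parvalbumin and somatostatin classes under a cascade of the transcription factors Nkx2-1, Lhx6, Sox6 and Satb1, whereas VIP cells come from the caudal eminence. In the cortex, neurons that combine Sst, Npy, Nos1 and Chodl are known as GABAergic cells with long-range axons. Hippocampal ivy cells, which carry Npy and Nos1, also stem from the medial zone.

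Sst, Npy and Pvalb carry most of the signal described here, and they are set against Vip throughout. The 120 bases before the start of each of these genes are shown so that the promoters of the marker genes can be read next to that of Vip. The sequences are RefSeq's on GRCm38.p6, 5′ to 3′ on the strand of the gene. Capitals mark the core TGACG of the cyclic-AMP response element or its reverse complement CGTCA, and in Sst the whole palindrome TGACGTCA, in which both cores overlap. The element is known as the binding motif of CREB, a factor activated by cyclic AMP.
Sst, chr16:23890845-23890964, minus strand: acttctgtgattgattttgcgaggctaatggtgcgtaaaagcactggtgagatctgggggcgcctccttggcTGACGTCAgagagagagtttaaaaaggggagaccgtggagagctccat
Npy, chr6:49822590-49822709, plus strand: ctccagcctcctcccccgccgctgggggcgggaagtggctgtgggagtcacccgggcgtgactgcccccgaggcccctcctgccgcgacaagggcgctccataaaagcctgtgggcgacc
Pvalb, upstream start, chr15:78206401-78206520, minus strand: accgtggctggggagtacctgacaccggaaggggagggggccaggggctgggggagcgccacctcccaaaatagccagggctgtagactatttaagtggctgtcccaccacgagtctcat
Vip, chr10:5639098-5639217, plus strand: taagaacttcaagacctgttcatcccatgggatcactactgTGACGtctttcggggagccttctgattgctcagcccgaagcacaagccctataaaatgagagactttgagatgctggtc

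The palindrome in Sst begins 48 bases before the gene's start and the core in Vip 79 bases before it. Of the 10 marker genes, Sst and Tac1 had a core in any of their windows of this length, and the core in Tac1 begins 43 bases before the start. On both strands the core occurred in 11.7% of 32851 promoter windows of 120 bases, and the palindrome in 1.24%. A match of letters describes the sequence alone. GENCODE M21 places the start of Sst further upstream, inside the window shown, and that of Tac1 upstream of its whole window. The palindrome in Sst and the core in Tac1 therefore both lie within the GENCODE genes.

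Facts of the libraries limit how levels compare. They held 1052327 to 3398521 estimated counts. The tables of 6 cells list RefSeq transcripts and that of cell 7 lists Ensembl transcripts, and the shared protein-coding genes took from 12.7% of TPM in cell 6 to 70.0% in cell 7. Vip itself was detected in 7 of 7 cells, from 25.3 TPM (59 counts) in cell 4 to 5006 TPM in cell 7. The reporter eGFP had 92, 117, 25, 178 and 475 counts in cells 1 to 5. No entry under that name was found for cells 6 and 7, so it could not be read there. Gad1, which encodes a GABA-synthesising enzyme, and Adarb2, a gene of the caudal lineage, were also above 1 TPM in 7 of 7 cells. Gad2 was above 1 TPM in 6 cells and Slc32a1, the vesicular GABA transporter gene, in 5. As a gauge of stray counts, the tables of cells 1 to 6 list 91 or 92 synthetic ERCC control RNAs. These drew 7.89 to 25 counts in total per library, and no single entry drew more than 3. Whether controls were added is not given in the sources used here.

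Some of the 10 markers stood beside Vip in 6 of 7 cells, and 1 cell was almost free of these 10. Of the 70 pairs of marker and cell, 26 (37.1%) were above 1 TPM, against 23.6% of such pairs over all shared protein-coding genes. A further 9 pairs had counts but at most 1 TPM, and 35 had no count. Of the 10 markers, 9 (all but Chodl) were above 1 TPM in at least 1 cell, against 55.4% of all genes. In at least 2 cells there were 7, against 40.8%, in at least 4 cells 4, against 19.1%, and in at least 5 cells 2, against 11.7%. Sst and Npy were above 1 TPM in 5 cells, Pvalb and Nxph1 in 4, Tac1, Nos1 and Satb1 in 2, and Lhx6 and Sox6 in 1.

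**Figure D1:**
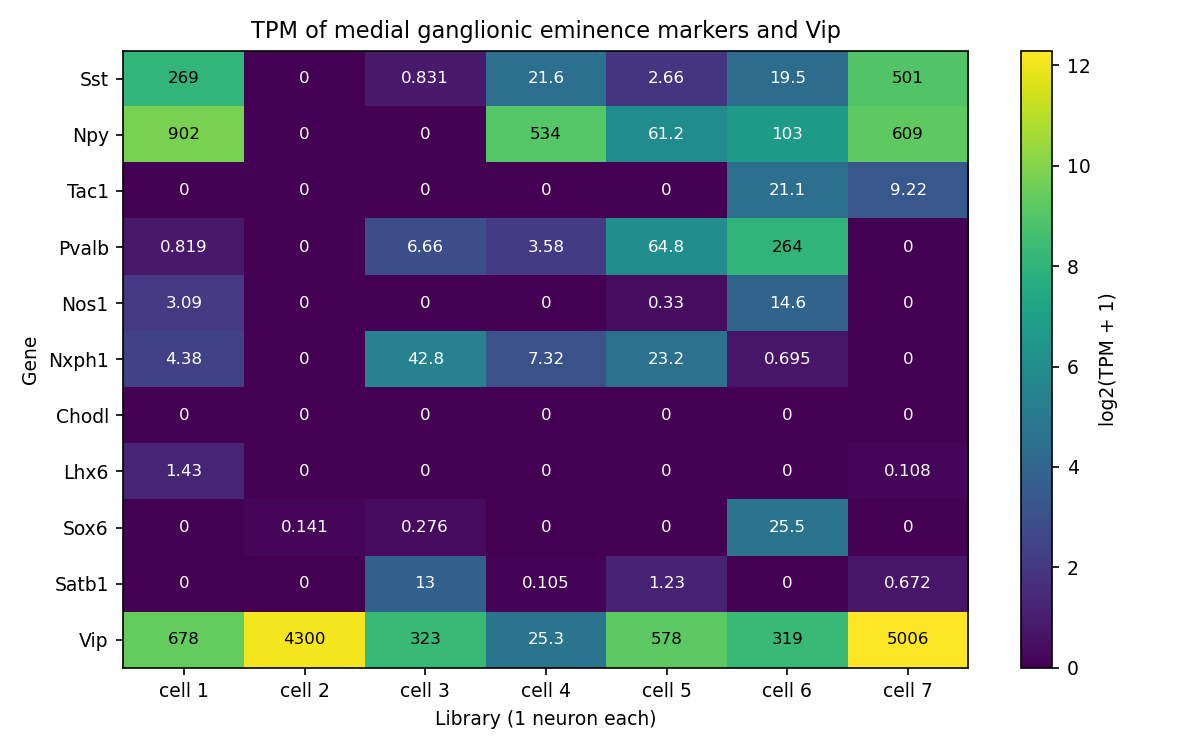
TPM of each marker gene and of Vip (rows) in each of the 7 libraries (columns), printed in the tiles and coloured by log2(TPM + 1). Cell 2 is dark for every marker while its Vip reads 4300, and cell 6 has 6 markers above 1 TPM.

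The share of markers detected was above the share of all genes in 6 cells, though only slightly in cell 3, and below it in cell 2. Cell 6 had 6 of 10 markers above 1 TPM, against 17.5% of all shared protein-coding genes. Cells 1 and 5 had 5 each, against 15% and 32.9% of all genes. Cell 4 had 4, against 21.4%. Cells 3 and 7 had 3 each, against 25% and 14.7%. Cell 2 had 0 markers, against 39% of all genes, the highest share of the 7 libraries. It is also the deepest library, and its sole counts on a marker were 2.31 on Sox6. Markers with at least 10 counts numbered 7 in cell 6, 4 in each of cells 1 and 5, 3 in each of cells 3, 4 and 7, and 0 in cell 2. The share of all genes with at least 10 counts was not computed.

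**Figure D2:**
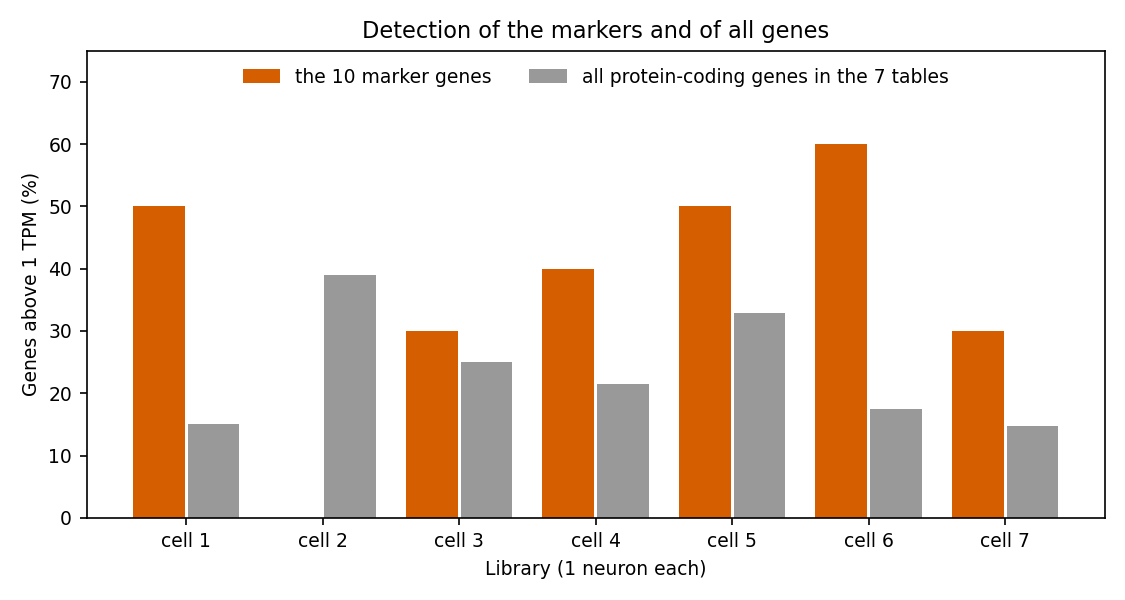
Share of genes above 1 TPM (%) in each library, for the 10 marker genes (orange) and for all 20187 shared protein-coding genes (grey). The grey bar is highest in cell 2, where no orange bar stands.

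Sst encodes the precursor of somatostatin, an inhibitory peptide that marks dendrite-targeting interneurons. On mm10 it lies on chromosome 16 (23889573 to 23890958, minus strand). It was at 269, 0, 0.831, 21.6, 2.66, 19.5 and 501 TPM in cells 1 to 7. The 2 high cells, 1 and 7, had 218 and 714 counts, and cells 4 and 6 had 16 and 31. The value of cell 5 rested on 3 counts and that of cell 3 on 1. The highest single ERCC entry held 1 count in cell 5 and 2 counts in cell 3. For 3 counts the exact 95% Poisson interval runs from 0.619 to 8.77 counts, and it covers counting error only. In cell 2, where no count was drawn, 3 counts would have given 3.02 TPM. On the log2(TPM + 1) scale Sst averaged 4.09 ± 3.46 (SD, n = 7 cells).

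Npy encodes neuropeptide Y and lies on chromosome 6 (49822710 to 49829507, plus strand). It was at 902, 0, 0, 534, 61.2, 103 and 609 TPM in cells 1 to 7, the highest peak level of the 10 markers. The 5 cells with a value had 700, 379, 66, 157 and 882 counts. In cell 1 Npy held rank 46 among the 20187 protein-coding genes of that library, ahead of Vip at rank 78, and in cell 4 it held rank 94, with Vip at rank 2018. Ranks within a library do not depend on the scale of TPM. In cells 2 and 3, 3 counts would have given 3.15 and 2.60 TPM. Its log2(TPM + 1) averaged 5.83 ± 4.22 (SD, n = 7 cells).

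Sst and Npy were above 1 TPM in the same 5 cells, and both were below it in cells 2 and 3. With at least 10 counts for each gene, they were together in 4 cells, since cell 5 drops out. Npy was the higher of the pair in each of the 5 cells, by 3.35-fold in cell 1, 24.8-fold in cell 4, 23.0-fold in cell 5, 5.29-fold in cell 6 and 1.22-fold in cell 7. The excess was thus large in cells 4 and 5 and slight in cell 7. Over the 7 cells the Pearson correlation of their log2(TPM + 1) values was 0.87. The 7 points are single libraries that differ in depth and annotation, so this is a description. The joint count was chosen after the values had been seen.

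Pvalb encodes parvalbumin, a calcium buffer of fast-spiking basket and axo-axonic cells, and lies on chromosome 15 (78191114 to 78206400, minus strand). It was at 0.819, 0, 6.66, 3.58, 64.8, 264 and 0 TPM in cells 1 to 7. Its high cells, 5 and 6, are not the high cells of Sst. In cell 6 it had 628 counts and rank 84, near Vip at rank 60, and in cell 5 it had 110 counts. The shared protein-coding genes took the smallest share of TPM in cell 6, and rescaled to those genes alone Pvalb there was at 2073 TPM. The values of cells 1, 3 and 4 rested on 1, 12 and 4 counts. Pvalb and Sst were both above 1 TPM in cells 4, 5 and 6, but both had at least 10 counts in cell 6 alone. The correlation of Pvalb with Sst over the 7 cells was -0.25 and that with Npy was 0.02, again as a description. Its log2(TPM + 1) averaged 2.87 ± 3.10 (SD, n = 7 cells).

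**Figure D3:**
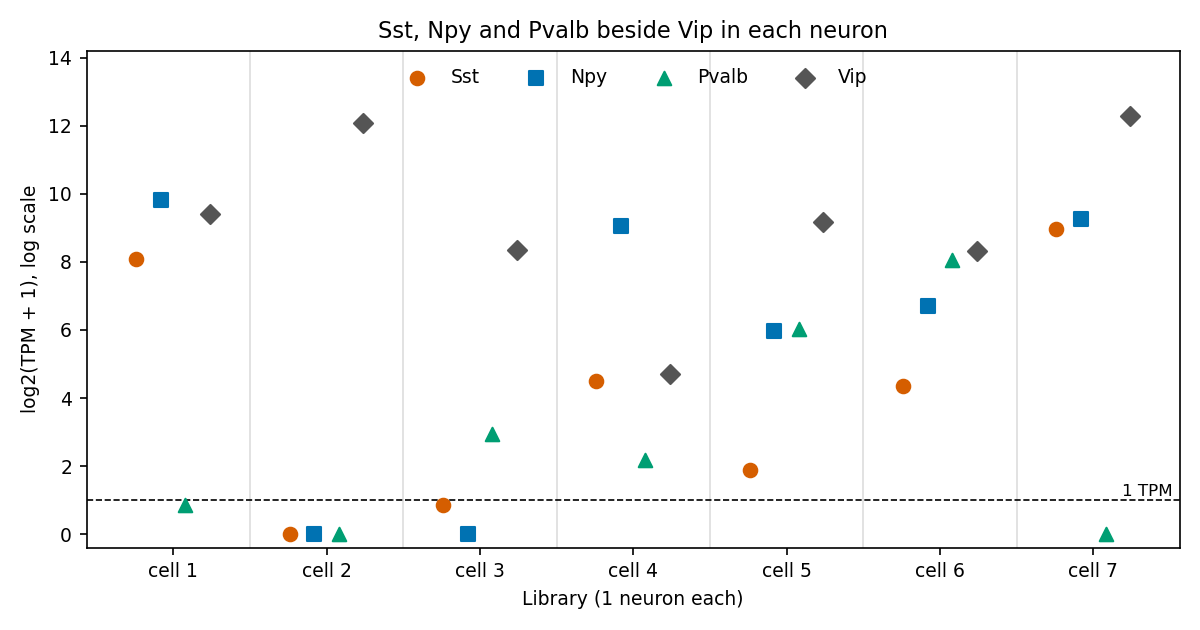
log2(TPM + 1) of Sst, Npy, Pvalb and Vip in each library, 1 point per gene and cell, with the 1 TPM threshold dashed. Npy lies above Vip in cells 1 and 4, and all 3 marker genes are at 0 in cell 2.

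Within the same cell, Sst, Npy and Pvalb together ranged from no count to many times the level of Vip. Their summed TPM was 22.1 times that of Vip in cell 4, 1.73 times in cell 1 and 1.21 times in cell 6. In cells 5 and 7 it was 0.223 and 0.222 times that of Vip, in cell 3 it was 0.0232 times, and in cell 2 it was 0. A ratio within a cell does not depend on what TPM is scaled to. It does depend on transcript length, since by estimated counts the sum exceeded Vip in cell 4 alone. The high ratio of cell 4 stood beside the lowest Vip of the 7 cells. The log2 ratio of the sum to Vip, with 1 TPM added to each, averaged -2.31 ± 5.25 (SD, n = 7 cells), so its mean was smaller than the spread between cells. It was -0.69 without cell 2 and -3.43 without cell 4.

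Tac1 encodes the precursor of substance P and neurokinin A and lies on chromosome 6 (7554879 to 7565834, plus strand). It was at 21.1 TPM (72 counts) in cell 6 and 9.22 TPM (10 counts) in cell 7, and listed at 0 in the other 5 cells. In those cells 3 counts would have given 1.07 to 1.72 TPM. In cell 7, 9 of its 10 counts fell on a transcript of 434 bases, the shortest of 5 listed for the gene.

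Nos1 encodes neuronal nitric oxide synthase and lies on chromosome 5 (117781032 to 117958840, plus strand). It was at 14.6 TPM (492 counts) in cell 6, 3.09 TPM (55.5 counts) in cell 1 and 0.330 TPM (8.03 counts) in cell 5. Cells 2, 3, 4 and 7 drew no count. GENCODE M21 annotates an antisense gene across Nos1, whose reads cannot be told apart from its own without strand. Sst, Npy and Nos1 were above 1 TPM together in cells 1 and 6. Chodl, which encodes a C-type lectin domain protein of the membrane and lies on chromosome 16 (78930948 to 78951733, plus strand), drew no count in any cell. A yield of 3 counts would have given 0.451 to 0.949 TPM for it. The full set Sst, Npy, Nos1 and Chodl was therefore detected in no cell at this depth.

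Nxph1 encodes neurexophilin 1, a secreted ligand of alpha-neurexins, and lies on chromosome 6 (8948431 to 9249032, plus strand). It was at 4.38, 0, 42.8, 7.32, 23.2, 0.695 and 0 TPM in cells 1 to 7. Its high cells, 3 and 5, had 536 and 165 counts, and in cell 3 Sst had 1 count and Npy none. Cell 2, which had no count of Sst or Npy, had none of Nxph1 either. The RefSeq tables list 2 transcripts for it, of 1783 and 14472 bases. All 115 counts of cell 1 and all 35 of cell 6 fell on the longer one, so that cell 6 stayed under 1 TPM with 35 counts. The longest Nxph1 transcript in the table of cell 7 has 2815 bases, and the 0 there refers to that annotation.

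Of the 21 pairs of a lineage transcription factor gene (Lhx6, Sox6 or Satb1) and a cell, 4 (19.0%) were above 1 TPM, against 23.6% of pairs over all shared protein-coding genes, which is a share near the background. No cell had more than 1 of the 3 genes above 1 TPM. Exactly 1 was detected in 4 cells, namely Lhx6 in cell 1, Satb1 in cells 3 and 5 and Sox6 in cell 6. Cells 4 and 7, with 534 and 609 TPM of Npy, had none.

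Lhx6 encodes the LIM homeodomain factor that maintains medial fate and lies on chromosome 2 (36081953 to 36105408, minus strand). It was at 1.43 TPM (8.01 counts) in cell 1, with an exact 95% Poisson interval of 0.618 to 2.82 TPM. It drew 1 count in cell 7 and none elsewhere, where 3 counts would have given 0.266 to 0.558 TPM. The same cell had high Sst and Npy.

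Sox6 encodes an SRY-box factor that acts downstream of Lhx6 and lies on chromosome 7 (115470872 to 116038796, minus strand). It was at 25.5 TPM (742 counts) in cell 6, at 0.276 TPM (5.03 counts) in cell 3 and 0.141 TPM (2.31 counts) in cell 2. No count was drawn in the other 4 cells, in which 3 counts correspond to 0.120 to 0.247 TPM. All 742 counts of cell 6 fell on a single one of 31 listed transcripts. GENCODE M21 annotates 2 antisense genes across Sox6, and the libraries keep no strand, so the reads of gene and antisense cannot be told apart.

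Satb1 encodes a chromatin organiser needed for the maturation of Sst cells and lies on chromosome 17 (51736187 to 51833290, minus strand). It was at 12.998 TPM (93 counts) in cell 3 and 1.23 TPM (10 counts) in cell 5, and drew 1 count each in cells 4 and 7. All counts of cell 3 fell on the shortest of 15 listed transcripts, of 2826 bases, and all counts of cell 5 on another, of 3355 bases. GENCODE M21 places 6 other genes across this locus, 1 of them on the opposite strand.

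Over all the markers, counts were mostly gathered on 1 transcript, and the pairs counted here include those of Tac1, Nxph1, Sox6 and Satb1 described above. Of 15 pairs of marker and cell with at least 10 counts and more than 1 listed transcript, 11 had at least 99% of their counts on 1 transcript. For Pvalb this was the 823-base transcript in cells 3, 5 and 6, while the 904-base transcript drew none. Vip counts fell on several transcripts in the 6 cells with several listed, but in cell 4 the top transcript took 97.2% of them. In the other 5 of these cells it took 35.8% to 52.2%. The cause was not tested.

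Of the 20 other genes linked to medial interneurons, 13 were above 1 TPM in at least 1 cell and 3 in 4 or more, against 55.4% and 19.1% of all genes. The sum of the 20 was highest in cell 2, at 333 TPM, against 12.5 to 201 TPM in the other cells. In cell 2, 7 of the 20 were above 1 TPM, as in cell 5, against 39% of all genes in cell 2. Cell 2 thus had none of the 10 markers above 1 TPM, while its detection of this wider list was near that of all genes. There, 11 of the 20 were at 0. Kcnc1, Erbb4 and Kcnc2 were among the leading members. Kcnc1, a potassium channel gene of fast-spiking cells, reached 136 TPM in cell 2, with 45.4 TPM in cell 5, and so was highest where the 10 markers were missing. Kcnc2, a related channel gene, reached 39.2 TPM in cell 4, with 21.8 TPM in cell 5 and 1.54 TPM in cell 2. It was at 0.105, 0.582 and 0.0514 TPM in cells 1, 6 and 7, which also had Sst and Npy. Erbb4, the neuregulin receptor gene found in many interneuron classes, was above 1 TPM in 5 cells.

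Among the rest of that list, 4 genes were picked out after their values had been seen. Nkx2-1, the factor that specifies the medial eminence, was at 10.4 TPM (40.2 counts) in cell 1, the cell with Lhx6, and drew no count in the other 6. Cort, the gene of the somatostatin relative cortistatin, was at 11.0 TPM (15 counts) in cell 5 alone. Crhbp, which encodes a binding protein for corticotropin-releasing hormone, reached 71.1 TPM in cell 4, with 9.94 TPM in cell 5 and no count elsewhere. Pnoc, the nociceptin precursor gene, was at 86.4 TPM in cell 2. Lhx8 and Hhip drew no count in any cell.

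Genes of the caudal lineage were present in the same libraries. Of 12 caudal genes, among them Vip itself, Cnr1, Adarb2 and Cck, 4 to 8 were above 1 TPM per cell, or 54.8% of all 84 pairs of gene and cell, against 23.6% over all shared protein-coding genes. Detection was uneven within this list as well. The caudal transcription factor genes Prox1 and Nr2f2 were above 1 TPM in 1 and 3 cells, and the peptide genes Crh, Penk and Tac2 in 1, 2 and 2 cells. These 5 genes were chosen after their values had been seen. The summed TPM of all 12 caudal genes was 17976 in cell 2 and 17241 in cell 7. The largest part of it was Cck, with 8825 in cell 2 and 6152 in cell 7, followed by Vip and then Tac2. In the other 5 cells the sum of the 12 was 285 to 860. The 2 cells with high caudal sums differed in the 10 medial markers, which summed to 0.141 TPM in cell 2 and 1120 TPM in cell 7.

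Transcripts typical of other cell types were also present, and their sums differed between cells. The 6 oligodendrocyte genes, led by the myelin gene Mbp, summed to 20793 TPM in cell 7, with all 6 above 1 TPM, against 69.9 to 1288 TPM in the other cells. The 8 astrocyte genes, led on average by Aldoc and S100b, summed to 2753 TPM in cell 7 and 1154 TPM in cell 1, against 29.8 to 235 TPM elsewhere. In cell 1 the largest part was Gja1, at 618 TPM, with S100b at 3.23 TPM. In cell 7 it was Aldoc, at 2150 TPM, and Gja1 was at 0. Gfap was at 0 in every cell and Aqp4 at no more than 0.0608 TPM. Cells 1 and 7 are the cells with the highest Sst and Npy. Other cells went the other way. Cell 4, with 534 TPM of Npy, had an astrocyte sum of 178 TPM. Cell 5, with 2.66 TPM of Sst, had the oligodendrocyte sum of 1288 TPM. The 8 microglial genes, led by Aif1 and C1qa, were at 1.55 TPM in sum in cell 6, with none above 1 TPM, and this cell had the most medial markers. In the other cells their sum was 53.3 to 1702 TPM. The 7 pyramidal genes summed to 12.996 to 470 TPM, and the 6 vascular genes to at most 87.2 TPM, with Cldn5 and Kcnj8 at 0 throughout. The 5 red blood cell genes summed to 10494 TPM in cell 2, which lacked the markers, and to 104 to 3388 TPM elsewhere. The 4 neurogliaform genes, of which Reln also stands in the list of 20, summed to 171 to 527 TPM in cells 1 to 5 and to 1.497 and 1.246 TPM in cells 6 and 7. Transcripts of the recorded cell and of neighbouring interneurons cannot be told apart from these tables, and the part of other cells in the marker values was not tested.

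**Figure D4:**
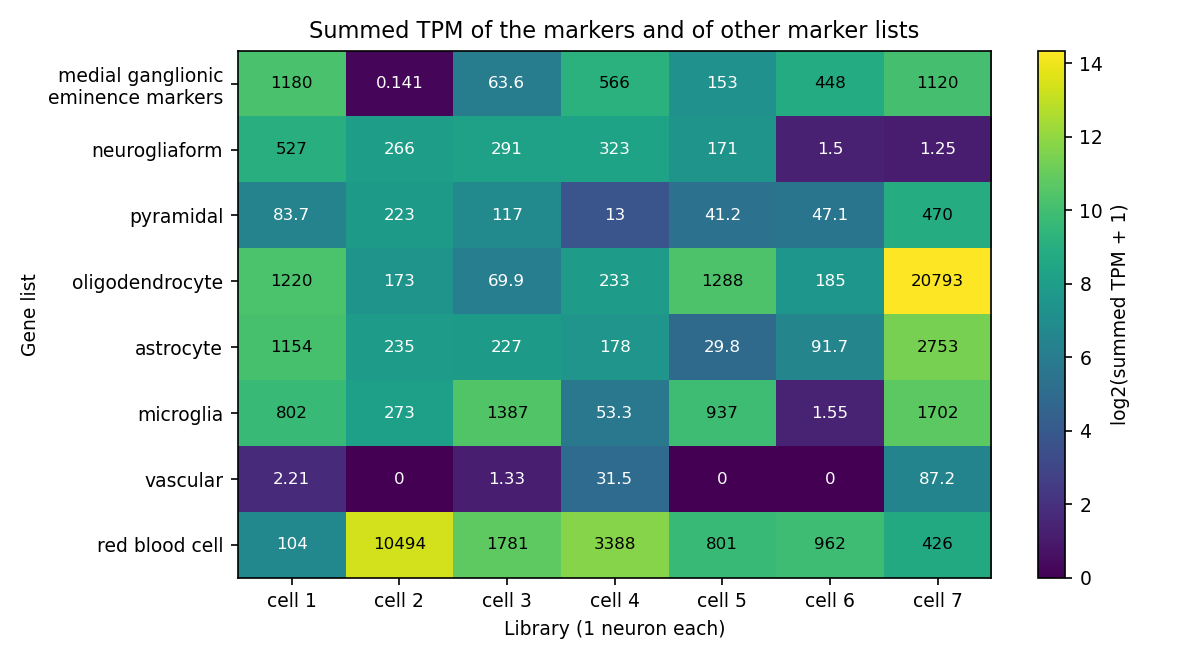
Summed TPM of the 10 medial ganglionic eminence markers (top row) and of marker lists for other cell types, printed in the tiles and coloured by log2(summed TPM + 1), in each library. Cell 7 has the highest oligodendrocyte sum, 20793, and cell 6 a microglial sum of 1.55.

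The genes with the patterns most like those of the markers were sought for the 4 markers above 1 TPM in at least 3 cells. Likeness was the Pearson correlation of log2(TPM + 1) over the 7 cells, across 5825 genes detected in at least 3 cells. For Sst they were Gabarapl2 (0.98), Dazap2 (0.98) and Rps15 (0.96), and 10 of the 5825 genes reached 0.9. Npy stood at place 19 for Sst. For Npy they were Gstp1 (0.98), Sf3b5 (0.97) and Rps27a (0.91), and 3 genes reached 0.9. For Pvalb they were Slc29a1 (0.93), Grik3 (0.93) and Irf2bp1 (0.93), and 13 genes reached 0.9. For Nxph1 they were Ankrd40 (0.93), Cacna1a (0.93) and Sde2 (0.92), and 9 genes reached 0.9. All points share 7 libraries of unequal depth.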

How the data were processed

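Libraries were made with SMART-Seq v4 and Nextera XT and read as paired ends, per the labels' protocols. These keep no strand and no molecular identifiers. Per the submitters' processing notes, kallisto, STAR 2.5.2a and the mm10 build were used. What each did, and with which annotation, is not given in the sources used here. Per the file headers, the authors' tables list for each transcript an estimated count, a TPM value and a length and effective length. TPM was scaled within each table by the authors.

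Values were summed per symbol, with symbols that had become dates, or were missing, looked up by accession (122 of 157 in cells 1 to 6, 81 of 1210 in cell 7). Log values are log2(TPM + 1). The value that 3 counts would give used the median effective length of a gene's transcripts. Positions are from GENCODE M21 and promoters from RefSeq. Python 3.11.15, pandas 2.3.3 and SciPy 1.17.1 were used, and the likeness measure was tested on simulated data.

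The 10 genes and all lists were chosen with earlier results of these data known. By rule, the named genes were the 10 markers, Vip, Gad1, Gad2, Slc32a1 and Adarb2, up to 4 leading genes of each list, and the 3 genes most like each marker detected in at least 3 cells. Outside this rule, Nkx2-1, Cort, Crhbp, Pnoc, Lhx8, Hhip, Gfap, Aqp4, Gja1, Cldn5, Kcnj8, Prox1, Nr2f2, Crh, Penk and Tac2 were named after their values had been seen. Leading genes of lists for other cell types are given by their sums, and some genes of the lists are not reported here. Alternatives were other thresholds and pseudocounts, TPM rescaled over the 20187 shared protein-coding genes, the highest transcript and leaving out each cell.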

Additional observations from a re-analysis of the deposited data

Results flagged for a closer look

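On the log2(TPM + 1) scale, the gap between the most extreme cell and its nearest neighbour was set against the range over all 7 cells, by Dixon's 95% critical value. The 10 values tested were 9 marker genes and the log2 ratio to Vip, since Chodl had no range. In 3 of them 1 cell stood apart, all of them lineage transcription factor genes with little or no count in most cells. About 1 in 20 normally distributed values would stand apart by chance. The values of these 3 genes lie at or near 0 in most cells, so that rate does not hold for them. Lhx6 was high in cell 1, at 1.43 TPM (8.01 counts) with the next cell at 0.108 TPM. Sox6 was high in cell 6, at 25.5 TPM with the next cell at 0.276 TPM. Satb1 was high in cell 3, at 12.998 TPM with the next cell at 1.23 TPM. The same cells stood apart after TPM was rescaled over the shared protein-coding genes, but rescaling leaves a value of 0 at 0 and so is no separate check.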

How the results depend on the processing

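No paired analysis was possible because the labels give 1 group. Pairs of marker and cell called detected numbered 26 above 1 TPM, 35 above 0 TPM, 17 above 10 TPM, 24 with at least 10 counts and 31 after rescaling. The share of all genes was taken above 1 TPM alone. How the markers stand against all genes at the other settings was therefore not tested. Cells with Lhx6, Sox6 or Satb1 detected beside Vip numbered 4 above 1 TPM, 7 above 0 TPM, 2 above 10 TPM and 3 with at least 10 counts. Cells with Sst, Npy or Pvalb beside Vip numbered 6, or 5 above 10 TPM. Sst and Npy were together in 5 cells, or 4 above 10 TPM or with at least 10 counts. Their sum with Pvalb exceeded Vip in 3 cells by TPM and 1 by estimated counts, which carry transcript length. The mean log2 ratio was -2.31, -1.48 with the highest transcript of each gene, -2.80 and -1.74 with pseudocounts of 0.1 and 10, and -3.43 to -0.69 with 1 cell left out. With 1 cell left out, detected pairs numbered 20 to 26 and cells with a transcription factor gene 3 to 4. Of 121 mean levels under other settings, 12 moved by at least 1 SD, all of them with another pseudocount. Leaving 1 of 7 cells out cannot move a mean by 1 SD, so those settings could not show a move. Chodl, at 0 in every cell with an SD of 0, moves with any other pseudocount. Of the 3 genes most like Pvalb, 0 were kept without cell 7 and 0 after rescaling, and rescaling kept 1 of 3 for Sst and for Nxph1. For Sst and Npy, 3 counts correspond to 1.88 to 4.22 TPM, so a threshold of 1 TPM lies below 3 counts there.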
